A study of Mus musculus with 5 samples.

Results

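The genes described here encode chaperones and regulators that handle protein folding in the endoplasmic reticulum (ER), namely Hspa5, Hsp90b1, Calr, Pdia4, Creld2, Sdf2l1, Herpud1, Xbp1, Dnajb9 and Ddit3. They were chosen by name as genes of the unfolded protein response, with earlier results of these data known. They were grouped by the branch of that response that drives them. For each gene the RefSeq transcript with the most counts was kept, and all 10 were among the 24399 genes so obtained and were among the 14565 genes that passed the filter on low counts. Messenger RNA was sequenced from LSK cells of mouse bone marrow, sorted by flow cytometry after red cell lysis as cells without lineage markers but with Sca1 and cKit, a gate that takes in blood stem cells and early progenitors. The titles name 3 libraries KO and 2 WT, all from C57BL/6 mice of 12 months. The KO-titled libraries carry a heterozygous label in their genotype field and come from a germ line knockout line, so they are called KO-labelled, and the WT libraries are labelled wild type. The labels give no sex, litter or number of animals per library, so a p-value here covers the spread between these libraries, and that spread may be technical.

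The ER is where secreted and membrane proteins fold, and chaperones of its lumen bind them until they have done so. When unfolded proteins accumulate, the sensors ATF6, IRE1 (gene Ern1) and PERK (gene Eif2ak3) start the unfolded protein response: ATF6 is cut in the Golgi and raises chaperone genes, IRE1 splices the Xbp1 messenger so that it encodes an active transcription factor, and PERK slows translation and raises Atf4 and its target Ddit3. The branches overlap, since ATF6 raises Xbp1 itself, XBP1 also acts on chaperone genes, and ATF4 contributes to Herpud1. In blood stem cells of mouse and human this response is known to bear on survival under stress.

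The target letters through which ATF6 and XBP1 act are known, and the promoters that hold them are shown. The rule for choosing the members did not use the letters. It took genes that this response drives, so the letters are not independent of the choice. Of the 10 members, 5 hold an exact match to these letters in the stretch searched, and the other 5, Xbp1 and Sdf2l1 among them, do not. Near matches, and letters outside that stretch, were not counted. The ER stress response element, ERSE, reads CCAAT, then 9 bases of any kind, then CCACG, and its shorter form, ERSE-II, reads ATTGG, then 1 base of any kind, then CCACG. Both were searched on both strands in the 250 bases before the start of each gene in RefSeq, on build GRCm38.p6. The count table was made on mm9 and holds no coordinates. The ERSE letters were present in 37 of 32536 such windows, or 0.114%, and in 0.16% of the tested genes with a window. They were in the windows of Hspa5, Hsp90b1, Calr and Creld2, 4 of the 10 members. The ERSE-II letters were in 10 windows, or 0.0307%, among them that of Herpud1, and in 0.0534% of the tested genes with a window. The windows of these 5 members follow, from the most distant base to the base before the start, with the fixed letters of each match in capitals.
Hspa5, chr2:34771840-34772089, plus strand: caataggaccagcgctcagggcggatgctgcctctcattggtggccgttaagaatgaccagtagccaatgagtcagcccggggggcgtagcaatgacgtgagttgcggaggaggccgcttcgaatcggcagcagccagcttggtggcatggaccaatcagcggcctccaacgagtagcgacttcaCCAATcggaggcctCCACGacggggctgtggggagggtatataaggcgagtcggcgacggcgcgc
Hsp90b1, chr10:86705445-86705694, minus strand: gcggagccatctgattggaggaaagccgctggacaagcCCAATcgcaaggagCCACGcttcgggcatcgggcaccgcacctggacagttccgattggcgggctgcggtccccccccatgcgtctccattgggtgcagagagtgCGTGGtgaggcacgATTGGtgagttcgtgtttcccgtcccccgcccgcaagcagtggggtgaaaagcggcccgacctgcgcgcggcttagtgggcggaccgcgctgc
Creld2, chr15:88819396-88819645, plus strand: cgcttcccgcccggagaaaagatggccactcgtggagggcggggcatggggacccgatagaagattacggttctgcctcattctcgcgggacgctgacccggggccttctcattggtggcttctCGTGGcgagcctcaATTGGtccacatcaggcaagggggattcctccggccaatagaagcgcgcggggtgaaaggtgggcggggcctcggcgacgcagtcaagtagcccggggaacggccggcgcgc
Calr, chr8:84846932-84847181, minus strand: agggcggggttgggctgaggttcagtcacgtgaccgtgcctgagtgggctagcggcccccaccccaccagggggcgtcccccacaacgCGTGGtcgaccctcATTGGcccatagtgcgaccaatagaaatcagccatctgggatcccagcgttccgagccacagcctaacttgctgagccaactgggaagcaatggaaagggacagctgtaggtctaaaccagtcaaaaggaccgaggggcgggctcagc
Herpud1, chr8:94386179-94386428, plus strand: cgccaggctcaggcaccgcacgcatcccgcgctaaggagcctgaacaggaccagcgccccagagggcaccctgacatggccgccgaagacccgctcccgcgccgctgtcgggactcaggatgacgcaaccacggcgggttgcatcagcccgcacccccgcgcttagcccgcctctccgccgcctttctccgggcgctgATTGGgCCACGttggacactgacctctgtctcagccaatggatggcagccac

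In Hspa5 the match ran from base 65 to base 47 before the start, on the strand of the gene. Hsp90b1 held 2 matches, at bases 212 to 194 on its own strand and at bases 107 to 89 on the other strand. The matches of Calr (bases 162 to 144) and Creld2 (bases 126 to 108) lay on the other strand, and the ERSE-II match of Herpud1 lay at bases 52 to 42 on its own strand. The CCAAT letters alone, which the ERSE contains, were in 33.8% of all windows and in those of 9 members, Xbp1 being without them. TGACGTGG, the core of the unfolded protein response element bound by XBP1, was in 0.569% of windows and in 0 of the 10. TGATGNAA, with N for any base, the core read by ATF4, was in 3.40% of windows and in that of Herpud1 on the other strand. A match of letters describes the window and does not show binding.

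Of the 10 members, which were chosen with earlier results of these data known, 5 rose in the KO-labelled libraries, and 0 fell. They were Hspa5, Herpud1, Xbp1, Creld2 and Sdf2l1, each higher by a factor of 1.47 to 1.61. All 5 stand in the group of 8 members placed under ATF6, where Hsp90b1, Calr and Pdia4 did not pass. Neither Dnajb9, placed under XBP1, nor Ddit3, placed under PERK, passed. The XBP1 and PERK groups hold 1 member each, so the calls do not allow a comparison of branches. Of all tested genes, 1.97% changed, 0.790% higher and 1.18% lower, by the same rule (edgeR's quasi-likelihood test, Benjamini-Hochberg adjusted p under 0.05 over all 14565 genes), and 98 of the 9781 tested genes with a mean of at least 10 CPM rose. At an unadjusted p under 0.05, 7 members and 6.76% of all tested genes were higher. CPM is the usual scaling of a gene's count by its library total, here after TMM scaling. The median log2 fold change was 0.45 over the 10 members, with a range of 0.16 to 0.69, and 0.00 over all tested genes. The 3 KO-labelled values lay above both WT values for 7 members, as they did for 16.5% of all tested genes.

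**Figure D1:**
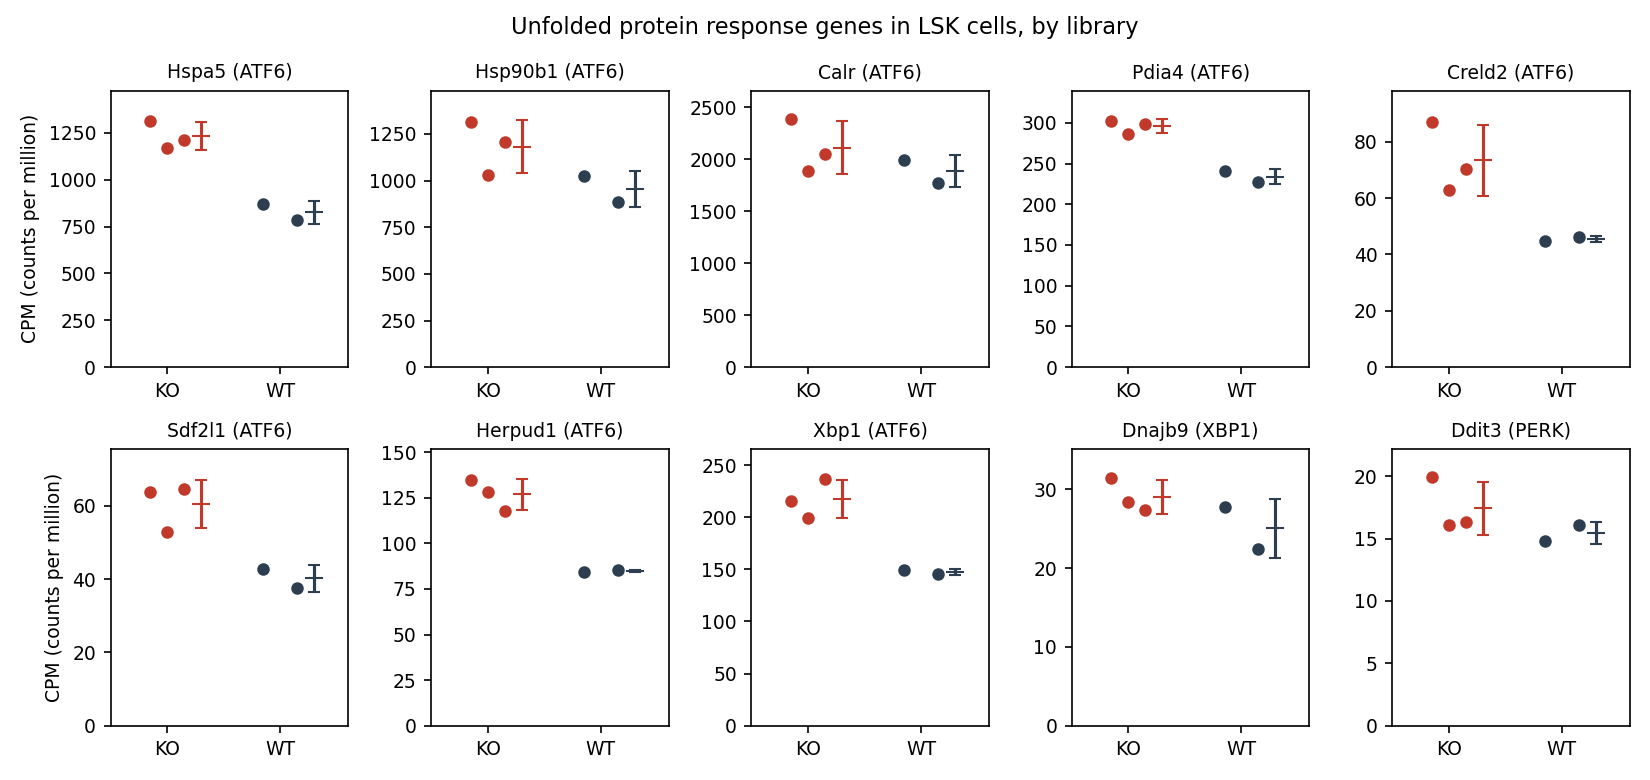
CPM of the 10 members in each library, with 3 KO-labelled (KO, red) left of 2 WT libraries (dark), and the mean ± SD beside the points; the branch stands in brackets. Groups do not overlap for Hspa5, Hsp90b1, Pdia4, Creld2, Sdf2l1, Herpud1 and Xbp1, and overlap for Calr, Dnajb9 and Ddit3.

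Hspa5 encodes BiP, the Hsp70 chaperone of the ER lumen, which also holds the sensors inactive. It stood at 1314, 1168 and 1212 CPM in KO libraries 1 to 3 and at 870.2 and 782.6 CPM in WT libraries 1 and 2. The lowest KO-labelled library lay well above the higher WT library. Hspa5 rose 1.49-fold, a log2 fold change of 0.58 ± 0.08 (SE; edgeR adjusted p = 0.00381). The call was lost when either WT library was left out, at log2 fold changes of 0.66 without WT library 1 and 0.50 without WT library 2 (adjusted p = 0.137 each), and held in the other 11 of 13 alternative settings, down to an adjusted p of 2e-08. Its 2 RefSeq transcripts carried nearly the same reads.

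Hsp90b1, or GRP94, is the Hsp90 chaperone of the ER and has integrins and Toll-like receptors among its clients. It stood at 1312, 1030 and 1204 CPM in the KO-labelled libraries and at 1024 and 886.3 CPM in the WT libraries. The groups met almost without a gap, at KO library 2 and WT library 1. Its log2 fold change of 0.31 ± 0.10 did not pass (edgeR adjusted p = 0.187) and did not pass in any of the 13 alternatives, where the lowest adjusted p was 0.0565.

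Calr encodes calreticulin, the calcium-binding lectin chaperone of newly made glycoproteins. It stood at 2384, 1883 and 2052 CPM in the KO-labelled libraries and at 1991 and 1772 CPM in the WT libraries, so that KO library 2 lay below WT library 1. Its log2 fold change was 0.16 ± 0.10 (edgeR adjusted p = 0.508). Like Hspa5 and Creld2, which rose, Hsp90b1 and Calr hold the ERSE letters shown above. Of all 18 tested genes with these letters, 2 were called, both members, and of the 14 that are not members 0 were called, with a median log2 fold change of 0.12.

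Per length of transcript, Calr was the most abundant member, at 964 ± 117 RPKM (CPM per kilobase of transcript) in KO-labelled and 862 ± 70.8 RPKM in WT libraries (SD, n = 3 and 2). The order of the next 2 genes depended on the group. Hspa5 stood at 471 ± 28.7 RPKM and Hsp90b1 at 419 ± 50.4 RPKM in the KO-labelled libraries, against 316 ± 23.7 RPKM for Hspa5 and 338 ± 34.5 RPKM for Hsp90b1 in the WT libraries. The ratio of Hspa5 to Hsp90b1 within a library, which does not depend on the scaling, was 1.08, 1.23 and 1.09 in the KO-labelled libraries and 0.918 and 0.955 in the WT libraries. Hspa5 was thus above Hsp90b1 in all 3 KO-labelled libraries and below it in both WT libraries. The ratio of Hspa5 to Calr was 0.461, 0.519 and 0.494 in the KO-labelled libraries and 0.365 and 0.369 in the WT libraries, again without overlap. An exact two-sided permutation test that doubles the smaller tail gave p = 0.2 for both ratios. This is the lowest value that this form of the permutation test can give with 3 against 2 libraries. The ratio of Herpud1 to Hspa5 was 0.138 ± 0.0086 in KO-labelled and 0.138 ± 0.0114 in WT libraries, with overlapping values.

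Pdia4, or ERp72, a protein disulfide isomerase that forms and reshuffles disulfide bonds, lay just outside the threshold. Its values were 302.7, 285.9 and 299.1 CPM in the KO-labelled libraries and 240.6 and 227.3 CPM in the WT libraries. All KO-labelled values were higher, with a small spread in both groups. The log2 fold change was 0.34 ± 0.08 (edgeR adjusted p = 0.0521). It passed in 5 of 13 alternatives, among them DESeq2 (adjusted p = 0.0031) and the fit without KO library 1 (log2 fold change 0.32, adjusted p = 0.0123), and the adjusted p ran up to 0.421.

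Creld2, an ER protein with disulfide isomerase activity that is released under ER stress, and Sdf2l1, a partner of the BiP cycle of the ER, were far less abundant and rose by similar factors. Creld2 stood at 87.1, 62.7 and 70.2 CPM in the KO-labelled libraries and at 44.7 and 46.2 CPM in the WT libraries. It rose 1.61-fold (log2 fold change 0.69 ± 0.14, edgeR adjusted p = 0.0203), the largest change among the members, and KO library 1 was the highest. Sdf2l1 stood at 63.9, 52.8 and 64.7 CPM in the KO-labelled libraries and at 42.8 and 37.6 CPM in the WT libraries. It rose 1.5-fold (log2 fold change 0.59 ± 0.13, edgeR adjusted p = 0.0348). Per length the 2 genes were level, at 53.7 ± 9.14 and 54.6 ± 6.03 RPKM in KO-labelled and 33.3 ± 0.767 and 36.3 ± 3.31 RPKM in WT libraries. Both lost their call without KO library 3 (edgeR adjusted p = 0.0517 for Creld2 and 0.151 for Sdf2l1), without WT library 1 (0.37 and 0.256) and without WT library 2 (0.284 and 0.388), and with transcripts summed (0.0502 and 0.0677). Over the alternatives the log2 fold change ran from 0.55 to 0.79 for Creld2 and from 0.50 to 0.69 for Sdf2l1.

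Herpud1 is a membrane protein of the ER that recruits misfolded proteins to the ubiquitin ligase for degradation. It stood at 134.6, 128.4 and 117.7 CPM in the KO-labelled libraries and at 84.5 and 85.4 CPM in the WT libraries. The WT libraries were nearly equal and every KO-labelled library exceeded them. Herpud1 rose 1.49-fold (log2 fold change 0.58 ± 0.10, edgeR adjusted p = 0.00722), and the call held in 11 of 13 alternatives. It was lost without WT library 1 (log2 fold change 0.58, adjusted p = 0.233) and without WT library 2 (0.59, adjusted p = 0.159). GENCODE places an antisense gene over Herpud1, and how strand was used in counting is not given in the sources used here, so their reads cannot be told apart.

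Xbp1, the transcription factor of the IRE1 branch, is required for plasma cell development. It stood at 215.9, 199.7 and 236.8 CPM in the KO-labelled libraries and at 149.5 and 145.7 CPM in the WT libraries, without overlap. Xbp1 rose 1.47-fold (log2 fold change 0.56 ± 0.09, edgeR adjusted p = 0.00746). The call was lost without KO library 3 (log2 fold change 0.50, adjusted p = 0.0524), WT library 1 (0.58, adjusted p = 0.227) and WT library 2 (0.54, adjusted p = 0.191), and held in the other 10 of 13 alternatives. The 2 RefSeq transcripts of Xbp1 had the same counts in all 5 libraries, so the messenger spliced by IRE1 cannot be told apart from the unspliced one in these counts. Dnajb9, or ERdj4, a J-domain partner of BiP that is a target of the spliced form in mouse cells, stood at 31.4, 28.4 and 27.3 CPM in the KO-labelled libraries and at 27.7 and 22.4 CPM in the WT libraries. KO library 3 lay below WT library 1, and the log2 fold change was 0.21 ± 0.15 (edgeR adjusted p = 0.586).

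Among plasma cell markers, 2 of 7 rose and 0 fell in the KO-labelled libraries, and 4 rose with DESeq2 and 2 with limma. Of all tested genes, 0.790% rose in edgeR, 1.81% with DESeq2 and 1.70% with limma. The proteoglycan Sdc1 (CD138) stood at 26.7, 25.3 and 29.9 CPM in the KO-labelled libraries and at 14.3 and 15.9 CPM in the WT libraries (edgeR adjusted p = 0.0147). The transcription factor Irf4 stood at 7.34, 8.65 and 13.7 CPM in the KO-labelled libraries and at 3.0 and 3.25 CPM in the WT libraries (edgeR adjusted p = 0.0174). Mzb1, an ER chaperone of antibody-making cells, stood at 6.14 to 13.3 CPM in the KO-labelled libraries, against 1.53 to 4.24 CPM in WT libraries, Tnfrsf17 at 1.51 to 3.09 against 0.256 to 0.70 CPM, and Prdm1 at 3.57 to 6.99 against 1.70 to 3.38 CPM. These 3, like Sdc1 and Irf4, had all KO-labelled values above both WT values, as had 16.5% of all tested genes. They did not pass in edgeR (adjusted p = 0.119, 0.15 and 0.34). With DESeq2 Mzb1 (adjusted p = 0.0162) and Tnfrsf17 (0.0337) passed. The antibody joining chain Jchain overlapped, at 263 to 585 CPM in the KO-labelled libraries, against 269.5 to 490.0 CPM in WT libraries, as did Fkbp11. The summed level of the list was 316 to 665 CPM in the KO-labelled libraries, against 305 to 526 CPM in WT libraries, most of it Jchain, and none of the 7 markers was at 0. Of the members that rose, Hspa5, Herpud1 and Creld2 were highest in KO library 1. KO library 3, the highest for Xbp1 and Sdf2l1, was also the highest for all 7 markers. Without it neither Sdc1 (adjusted p = 0.0977) nor Irf4 (0.107) passed, and both also lost their call without WT library 1 (0.284 and 0.328) or WT library 2 (0.148 and 0.25). With all libraries and the replicate number as a term, the replicate block, Sdc1 (log2 fold change 0.79, adjusted p = 0.0775) and Irf4 (1.35, adjusted p = 0.0718) did not pass either, against 0.85 and 1.66 without that term. The part of these cells in the result was not tested. In bulk samples, a different number of cells of a type and a different amount of RNA per cell cannot be told apart.

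**Figure D2:**
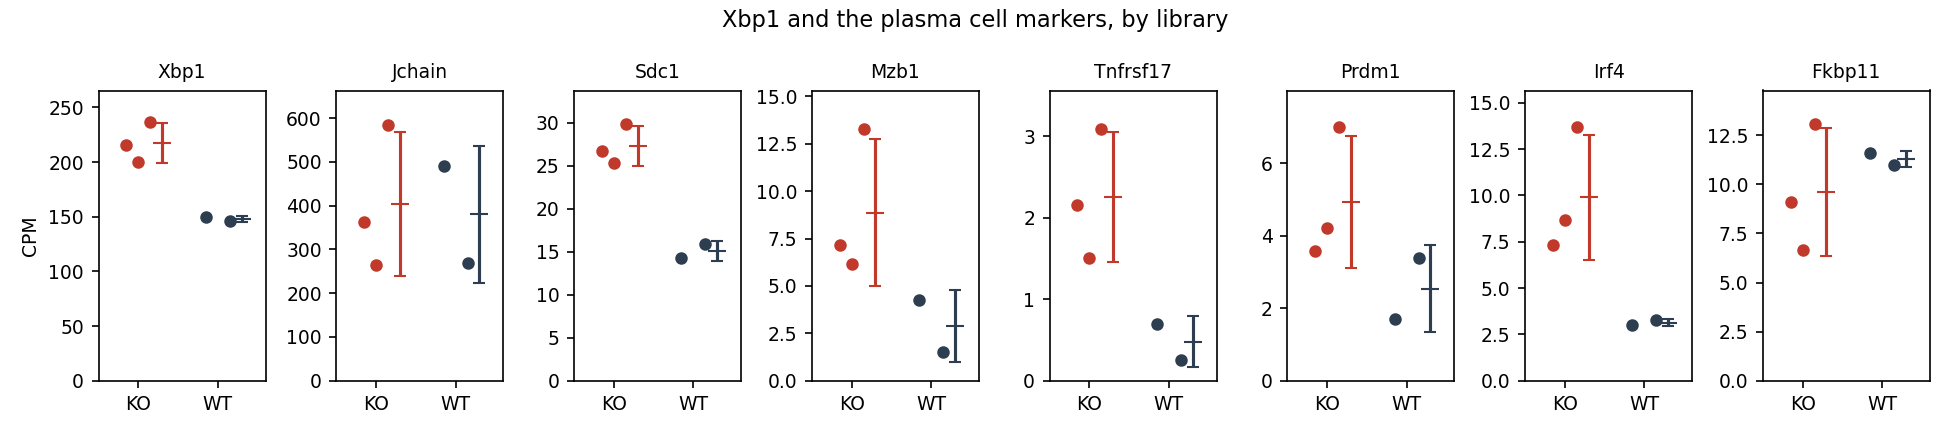
CPM of Xbp1 and of the 7 plasma cell markers in the 3 KO-labelled (KO, left, red) and 2 WT (right, dark) libraries, with the mean ± SD beside the points. Sdc1 and Irf4 passed the test, whereas Jchain and Fkbp11 overlap between groups.

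Among the B cell markers no such difference was called: 0 of 5 tested passed in edgeR, DESeq2 or limma, and 0 had an unadjusted p under 0.05. Their sum was 50.3 to 57.1 CPM in the KO-labelled libraries, against 44.1 to 52.4 CPM in WT libraries. Most of it was Cd79b, at 52.8, 44.8 and 43.1 CPM in the KO-labelled libraries and at 42.8 and 40.2 CPM in the WT libraries, without overlap (edgeR adjusted p = 0.596). The other tested B cell markers stood at 4.34 CPM or less, and the SE of their log2 fold changes was 0.40 to 1.11, so differences could be missed. The LSK markers Kit, Ly6a, Cd34, Flt3, Meis1 and Mecom were all measured, with sums of 3201 to 3598 CPM in the KO-labelled libraries, against 3454 to 3568 CPM in WT libraries, and 0 of 6 passed. Of the genes of the sort gate, Ly6a (Sca1) stood at 97.2, 90.5 and 104.5 CPM in the KO-labelled libraries and at 74.9 and 82.0 CPM in the WT libraries (edgeR adjusted p = 0.175). Kit stood at 1126, 1086 and 1144 CPM in the KO-labelled libraries and at 1205 and 1227 CPM in the WT libraries (edgeR adjusted p = 0.499). Neither overlapped, with KO-labelled values above for Ly6a, as for 16.5% of all tested genes, and below for Kit, as for 16.3%. Of 6 erythroid markers 2 rose (3 with DESeq2), against 0.790% of all tested genes (1.81% with DESeq2). The sum of the 6 was 170 to 254 CPM in the KO-labelled libraries, against 104.6 to 106.6 CPM in WT libraries. The transcription factor Klf1 stood at 13.4, 12.9 and 16.9 CPM in the KO-labelled libraries and at 3.47 and 6.65 CPM in the WT libraries (edgeR adjusted p = 0.0169), and the carbonic anhydrase Car1 at 210.4, 126.3 and 174.4 against 79.9 and 80.9 CPM (0.0167). Of 6 granulocyte and monocyte markers 2 fell (5 with DESeq2), against 1.18% of all tested genes (311 of 14565 with DESeq2). The sum of these 6 was 2921 to 3742 CPM in the KO-labelled libraries, against 4336 to 4607 CPM in WT libraries. The neutrophil protease gene Prtn3 averaged 200.9 ± 24.4 CPM in the KO-labelled libraries, against 370.3 ± 42.7 CPM in WT libraries (edgeR adjusted p = 0.00133), and Ctsg 249.7 ± 24.3 against 396.3 ± 21.0 CPM (0.00328). All 4 calls were lost without WT library 1 (adjusted p = 0.284 for Klf1, 0.248 for Car1, 0.07 for Prtn3 and 0.208 for Ctsg) or WT library 2 (0.0774, 0.181, 0.115 and 0.097), that of Klf1 also without KO library 3 (0.0774), and that of Car1 also with limma (0.0711) and with no count filter (0.0712). Of 6 dendritic cell markers 0 passed in edgeR, 2 were higher with DESeq2 and 4 were higher at an unadjusted p under 0.05. Of all tested genes, 1.81% were higher with DESeq2 and 6.76% at that unadjusted threshold. Siglech stood at 5.79, 4.02 and 2.76 CPM in the KO-labelled libraries and at 1.37 and 1.36 CPM in the WT libraries (edgeR adjusted p = 0.101), and Xcr1 averaged 11.3 ± 3.27 CPM in the KO-labelled libraries, against 4.96 ± 0.249 CPM in WT libraries (0.0574), both without overlap. Flt3 stands in this list and in the LSK list. The summed level of this list overlapped, at 553 to 814 CPM in the KO-labelled libraries, against 607 to 658 CPM in WT libraries. Most of this sum was Flt3, at 402.5, 643.6 and 455.7 CPM in the KO-labelled libraries and at 529.5 and 481.3 CPM in the WT libraries. All KO-labelled values lay above both WT values for 4 of the 6 markers, Siglech and Xcr1 among them, against 16.5% of all tested genes. Of 6 T and NK cell markers 0 passed in edgeR, DESeq2 or limma, and 0 had an unadjusted p under 0.05. None of the tested markers of these lists was at 0 in all libraries, and the part of these cells in the members' differences was not tested. Total counts with 1 transcript per gene were 36060320 to 39691066 in KO-labelled and 29964556 to 38674416 in WT libraries.

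Ddit3 encodes CHOP, the transcription factor of the PERK branch that favours cell death under lasting ER stress. It was the second least abundant member per length, with Dnajb9 below it, and stood at 19.9, 16.1 and 16.3 CPM in the KO-labelled libraries and at 14.8 and 16.1 CPM in the WT libraries. KO library 2 and WT library 2 were level. The log2 fold change was 0.17 ± 0.18 (edgeR adjusted p = 0.74), and no alternative of the 13 gave an adjusted p under 0.707. The gene Mars and a processed transcript lie over Ddit3 on the opposite strand in GENCODE, so its reads are uncertain in the same way as those of Herpud1. The same holds for Hsp90b1, which a pseudogene overlaps on the opposite strand and a processed transcript on its own, and GENCODE also places miRNA genes over Hsp90b1, Pdia4 and Dnajb9.

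The sensors themselves did not pass. Of 12 tested sensor and transducer genes, 0 passed in either direction, against 0 with DESeq2 and 2 higher with limma (Atf4 and Dnajc3). At an unadjusted p under 0.05, 2 were higher and 1 was lower. Of all tested genes, 1.70% were higher with limma and 6.76% at that unadjusted threshold. Atf6 stood at 104.3 ± 8.50 CPM in the KO-labelled libraries, against 112.4 ± 5.01 CPM in WT libraries, and the kinase gene Eif2ak3 at 49.4 ± 2.36 and 49.0 ± 7.15 CPM. Ern1, the gene of IRE1, varied widely among the KO-labelled libraries, at 65.2, 127.2 and 158.8 CPM, against 116.0 and 143.7 CPM in the WT libraries. Its log2 fold change was -0.15 ± 0.42, and 0.14 without KO library 1 (edgeR adjusted p = 0.929 and 0.608). Atf4, whose protein output is set mainly by translation, stood at 159.7, 175.1 and 166.1 CPM in the KO-labelled libraries and at 136.1 and 139.8 CPM in the WT libraries. Its log2 fold change of 0.28 ± 0.09 did not pass in edgeR with all libraries (adjusted p = 0.155) and passed without KO library 1 (0.31, adjusted p = 0.0267). Dnajc3, which inhibits PERK and assists BiP, stood at 255 ± 24.0 and 214 ± 15.3 CPM (log2 fold change 0.25 ± 0.10, edgeR adjusted p = 0.259; 0.0278 without KO library 1), and the protease gene Mbtps1, which cuts ATF6, at 212 ± 1.13 and 211 ± 13.6 CPM. Mbtps2, the other protease gene of that step, stood at 30.9, 41.6 and 36.4 CPM in the KO-labelled libraries and at 45.4 and 50.4 CPM in the WT libraries (log2 fold change -0.40 ± 0.14, edgeR adjusted p = 0.208, unadjusted p = 0.0137). Both WT values lay above all KO-labelled values, as they did for 16.3% of all tested genes.

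Other genes of the ER folding machinery did not pass in the edgeR fit used for the members either. Of 17 tested, 0 passed and 14 had a log2 fold change above 0, with a median of 0.12. By DESeq2 2 rose and by limma 3, against 1.81% and 1.70% of all tested genes. At an unadjusted p under 0.05 there were 5 higher and 1 lower. At that unadjusted threshold 6.76% of all tested genes were higher. All KO-labelled values lay above both WT values for 9 of 17 and below both for 1, against 16.5% and 16.3% of all tested genes. The lectin chaperone Canx stood at 1069 ± 56.0 CPM in the KO-labelled libraries, against 984 ± 63.3 CPM in WT libraries, and the disulfide isomerase P4hb at 923 ± 60.3 and 881 ± 59.8 CPM. Hyou1 and Manf are named after their values were seen, as the 2 that DESeq2 called. Hyou1, the nucleotide exchange factor of BiP, stood at 379, 368 and 399 CPM in the KO-labelled libraries and at 299 and 314 CPM in the WT libraries (log2 fold change 0.32 ± 0.08, edgeR adjusted p = 0.0674). Manf, a secreted stress protein of the ER, stood at 169.5, 142.6 and 164.0 CPM in the KO-labelled libraries and at 124.3 and 115.8 CPM in the WT libraries (0.40 ± 0.10, edgeR adjusted p = 0.0608). Neither overlapped between groups. With all libraries both passed by DESeq2 (adjusted p = 0.00581 and 0.00943) and by limma (0.00913 and 0.0138). In edgeR both also passed with no count filter (0.0314 and 0.0134) and with an offset for transcript length (0.0234 and 0.0383). Neither passed with other scalings, with transcripts summed (0.105 and 0.109) or with the replicate block (0.267 and 0.154). Both passed without KO library 1 (edgeR adjusted p = 0.0114 and 0.0231), Manf also without KO library 2 (0.027).

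**Figure D3:**
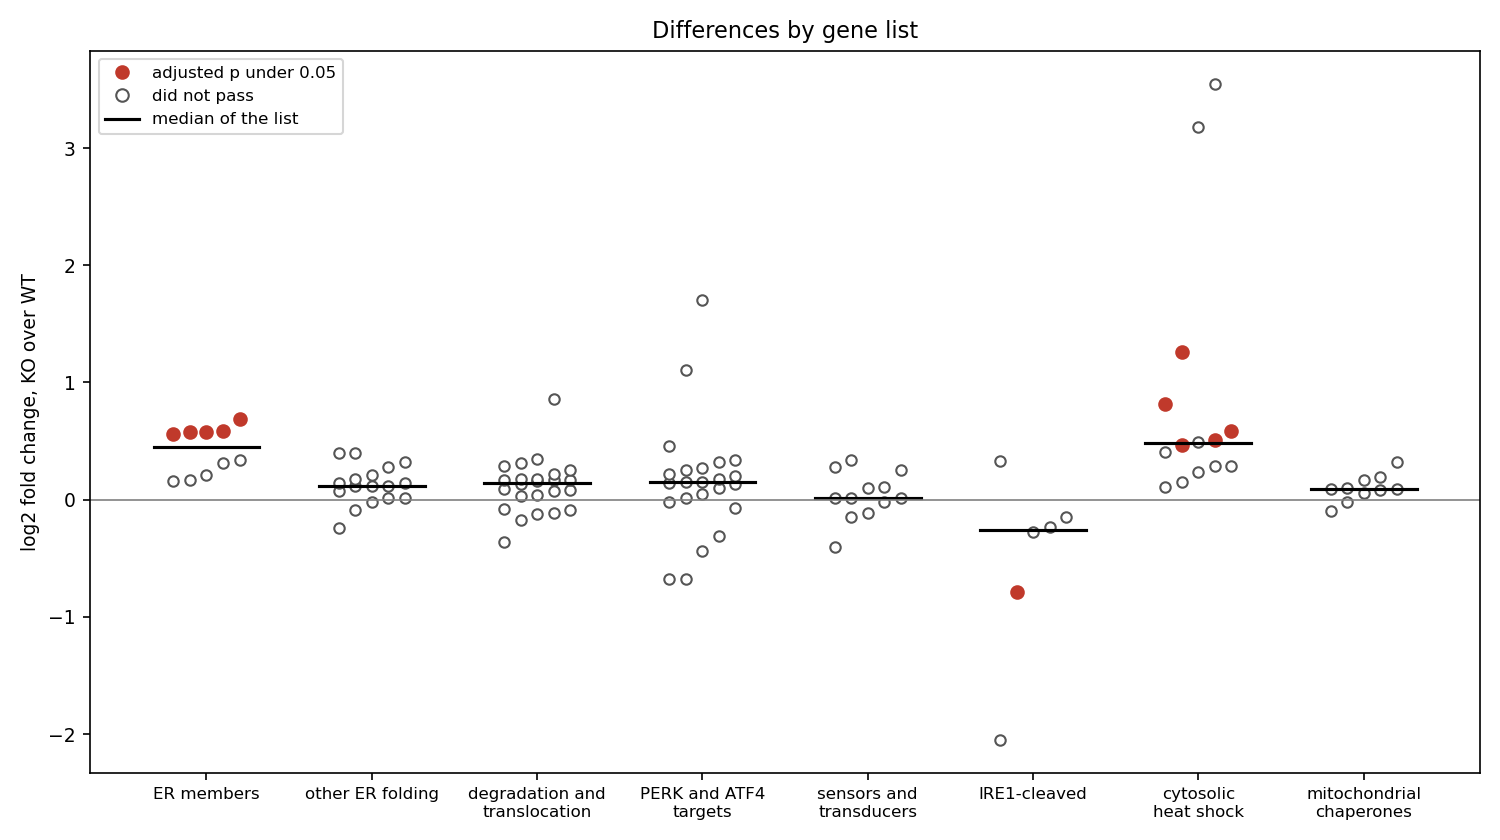
Log2 fold change, KO-labelled over WT, of each tested gene by list, with filled points for an adjusted p under 0.05 in edgeR and a bar at each median. The median was 0.45 for the members, 0.12 for the other ER folding genes, 0.48 for the cytosolic heat shock genes and 0.09 for the mitochondrial chaperones.

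Genes of ER-associated degradation and of translocation into the ER, many of them XBP1 targets, held 0 calls among 24 tested (0 with DESeq2, 1 with limma, and 4 higher and 1 lower at an unadjusted p under 0.05), with a median of 0.14. The translocon-associated subunits Ssr1 and Ssr3 stood at 414 ± 8.77 and 408 ± 23.1 CPM in the KO-labelled libraries, against 437 ± 21.9 and 458 ± 54.9 CPM in WT libraries. Among 23 tested PERK and ATF4 targets 0 passed (1 higher with DESeq2, 0 with limma, and 6 higher and 1 lower at an unadjusted p under 0.05), with a median of 0.15. DESeq2 called 1.81% of all tested genes higher, and limma 1.70%. At that unadjusted threshold 6.76% of all tested genes were higher. All KO-labelled values lay above both WT values for 7 of the 24 and 10 of the 23, against 16.5% of all tested genes. They lay below both for 2 of the 24 and 2 of the 23, against 16.3%. The aminoacyl-tRNA synthetase genes Gars and Nars stood at 264 ± 9.88 and 299.6 ± 4.44 CPM in the KO-labelled libraries, against 219.7 ± 6.56 and 264 ± 19.6 CPM in WT libraries, with log2 fold changes of 0.27 ± 0.08 and 0.18 ± 0.08 (edgeR adjusted p = 0.139 and 0.338). Of 6 tested transcripts that IRE1 cleaves in mouse cells, the growth factor receptor gene Pdgfrb fell 1.72-fold (log2 fold change -0.79 ± 0.16, edgeR adjusted p = 0.0388). It lost that call without KO library 3 (adjusted p = 0.118), WT library 1 (0.457) or WT library 2 (0.241), and also with all libraries but no count filter (0.0698), the replicate block (0.0626) or transcripts summed (0.0759). In that list 2 were lower with DESeq2, 1 with limma and 2 at an unadjusted p under 0.05. Of all 14565 tested genes, 172 were lower in edgeR, 311 with DESeq2, 377 with limma and 1023 at that unadjusted threshold. The second gene was Sparc, at low levels of 0.36, 1.05 and 0.785 CPM in the KO-labelled libraries and 3.77 and 2.33 CPM in the WT libraries (edgeR adjusted p = 0.129, DESeq2 adjusted p = 0.0391). Bloc1s1, the best known of these targets, stood at 16.7 ± 1.68 CPM in the KO-labelled libraries, against 18.5 ± 2.20 CPM in WT libraries, and Hgsnat at 36.3 ± 3.19 and 42.5 ± 0.811 CPM.

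Outside the ER, cytosolic heat shock genes also rose: 5 of 14 tested (Hsph1, Hspa8, Chordc1, Stip1 and Dnajb1), with a median log2 fold change of 0.48. DESeq2 called 8 higher and limma 7, and 11 were higher at an unadjusted p under 0.05. Of all tested genes, 0.790% were higher in edgeR, 1.81% with DESeq2, 1.70% with limma and 6.76% at that unadjusted threshold. All 14 had a log2 fold change above 0. For 13 all KO-labelled values lay above both WT values, against 16.5% of all tested genes. Of the 5 called in edgeR Hsph1 changed most, at 305 ± 23.3 CPM in the KO-labelled libraries, against 127 ± 4.08 CPM in WT libraries (log2 fold change 1.26, edgeR adjusted p = 2.13e-05). It passed without each KO library in turn, with log2 fold changes of 1.23 without WT library 1 and 1.29 without WT library 2. Without WT library 1 Hspa8 (edgeR adjusted p = 0.0564), Chordc1 (0.178), Stip1 (0.26) and Dnajb1 (0.275) lost their calls. Without WT library 2 Chordc1 and Stip1 (0.137 each) and Dnajb1 (0.286) did, and Dnajb1 also did without KO library 2 (0.0565). Among 10 mitochondrial chaperones and proteases 0 passed in edgeR, DESeq2 or limma (1 higher at an unadjusted p under 0.05), with Hspa9 at 645 ± 20.2 and 618 ± 35.3 CPM and Trap1 at 244 ± 6.69 and 229 ± 18.2 CPM. The difference between these lists and the ER members was not tested.

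Over the 5 libraries, the profile of Hspa5 was set against 9771 other genes with a mean of at least 10 CPM. The measure was the root mean square difference of log2 CPM after each gene was centred. It takes in the difference between the groups, so it is not separate from the log2 fold changes given above. The nearest were Dnajc21 (0.021), Ccdc25 (0.024), Mettl16 (0.032), Umad1 (0.035), Cdca3 (0.044) and Ppid (0.051). Of the members, Sdf2l1 (0.077) and Herpud1 (0.078) were the nearest, with 22 of the 9771 genes closer than each, followed by Xbp1 (0.091), with 41 closer. Pdia4 (0.123) and Creld2 (0.126) had 113 and 127 genes closer, Hsp90b1 (0.149) 247 and Dnajb9 (0.185) 648. Calr (0.212) and Ddit3 (0.225) were the farthest from Hspa5, with 1181 and 1558 genes closer.

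The plot of the members under each setting shows how far the calls rest on single libraries. With all libraries 5 members passed, and 6 did by DESeq2, by limma with sample weights, with no count filter, with an offset for transcript length and without KO library 1, the sixth being Pdia4 each time. In these 5 fits 1.81%, 1.70%, 1.18%, 1.11% and 2.17% of all genes tested rose. With transcripts summed 3 members (0.559% of all genes) and with the replicate number as a term 4 members (0.371%) passed. Without KO library 3 the members that passed were Hspa5 and Herpud1, where 0.293% of all genes rose. Without WT library 1, and likewise without WT library 2, 0 members passed in edgeR, although 7 and 6 had an unadjusted p under 0.05, and 0.0133% and 0.0734% of all genes rose in those fits. All 10 log2 fold changes stayed above 0 in all 13 alternatives. KO library 1 had relatively more counts on short transcripts than the others, a trend of 0.101 at a length of 1063 bases and -0.096 at 6169 bases on the log2 scale. With an offset for it the 5 called members kept their calls.

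**Figure D4:**
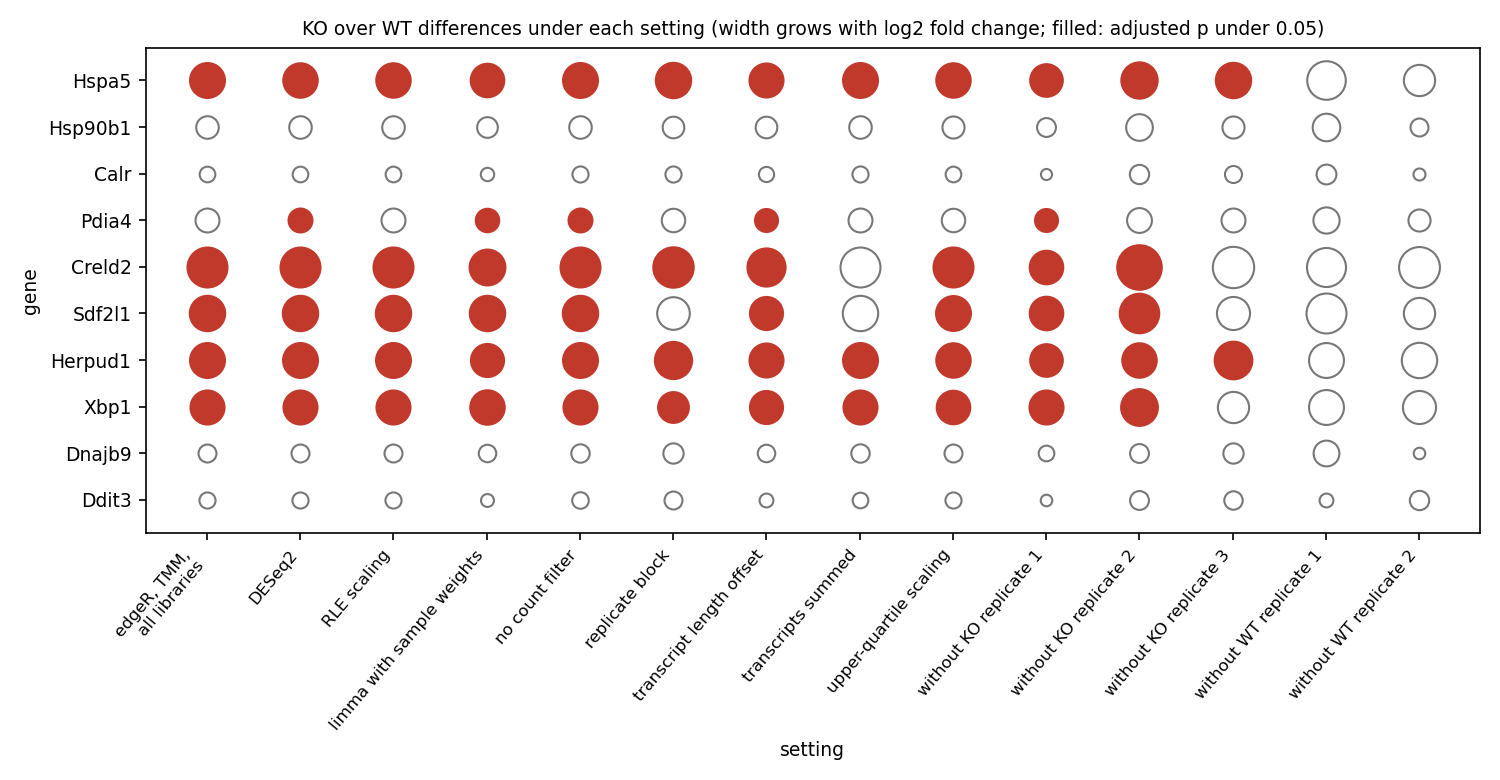
The 10 members (rows) under the fit with all libraries and 13 alternatives (columns). The width of a point grows with the log2 fold change of KO-labelled over WT, and filled points have an adjusted p under 0.05. Hspa5 and Herpud1 were filled in all columns but those without a WT library, and Hsp90b1, Calr, Dnajb9 and Ddit3 in none.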

How the data were processed

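The table the authors deposited gives raw counts of reads on 33862 RefSeq transcripts for 5 libraries made by a stranded messenger RNA protocol per the labels' protocols. STAR, featureCounts of Subread 1.4.5-p1 and build mm9 are named, per the submitters' processing notes, without settings. Symbols came from RefSeq (33485 transcripts) and GENCODE (188), and 189 kept their accession. After filterByExpr and TMM scaling, edgeR 4.0.16 in R 4.3.3 was used (robust quasi-likelihood test, two-sided, Benjamini-Hochberg, threshold 0.05), with the SE taken as the fold change over the root of F. DESeq2 1.42.0 and limma 3.58.1 were alternatives. Python 3.11.15 with scipy 1.17.1 gave exact tests. The code was tested on simulated data. Transcript lengths came from GENCODE and promoters from RefSeq, GRCm38.p6. Named were all members, up to 4 called genes per list or, where fewer than 2 passed, also the 2 most abundant, and Atf6, Ern1, Eif2ak3 and Atf4. Other named genes were chosen after their values were seen. Members and lists were chosen with earlier results of these data known. The targeted gene is not reported here.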

Additional observations from a re-analysis of the deposited data

How the results depend on the processing

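The count of changed genes over the whole table was 287 with all libraries. It was 575 with DESeq2, 624 with limma and sample weights, 455 with no count filter, and 6 to 675 with 1 library left out. The count of called members was 5, and 3 with transcripts summed, where reads shared by 2 transcripts count in both, and 0 to 6 with 1 library left out. The count of called pathway genes among 80 was 1, and 5 with DESeq2, 6 with limma, 2 with no count filter, 3 with the length offset, 0 with transcripts summed (22 at an unadjusted p under 0.05) and 0 to 6 with 1 library left out. Under the replicate block, with the number in the title as a term, 160 genes, 4 members (without Sdf2l1, adjusted p = 0.0848) and 0 pathway genes passed, the last with 14 at an unadjusted p under 0.05. Libraries of the same number deviated from their group means with correlations of 0.043 and 0.017, and the labels do not tie numbers to a litter or day, so the block pairs only numbers. Of 130 recalculated values of the members, 109 kept their direction and side of the threshold, 16 lost and 5 gained a call, and 0 changed sign. Genes that had not passed changed sign as follows. Ern1 was 0.01 with limma and -0.43 to 0.14 with 1 library left out. Eif2ak3 was -0.02 with limma and -0.13 to 0.17 with 1 left out. Jchain was -0.23 with the replicate block. Ssr1 was 0.01 with the length offset. With 1 library left out, Mbtps1 ran from -0.05 to 0.08, P4hb from -0.0004 to 0.14 and Jchain from -0.28 to 0.59. The cause was not tested. A fit with 1 WT library assumes that it varies as the KO-labelled ones do. The lowest count of a member was that of Ddit3, at 443 in WT library 1, and the effect of depth was not tested.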
